A study of Mus musculus with 4 samples.

Results

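The basal forebrain and preoptic area lie in front of and below the striatum, and here they were sought in 4 mouse brain sections as spots rich in 5 marker RNAs. The markers were Lhx8 and Gbx1, transcription factors of ventral forebrain neurons, and Agt, Slc6a11 and Itih3, which are transcribed mainly in astrocytes of this and neighbouring ventral regions. Among spots under tissue with at least 2000 UMI (unique molecular identifiers, 1 per captured RNA molecule counted), the 3% with the highest summed share of these markers were taken in each section. The rule gave 328 of 10948 such spots and of 12994 spots under tissue in all. There were 89 in rNLS8 1, 78 in rNLS8 2, 78 in control 1 and 83 in control 2. A spot is a small area of tissue that can hold several cells of different types, so the term selected spots is used below and no spot is taken as a cell type.

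The 4 sections came from brains of rNLS8 mice (2 sections) and of mice labelled control (2 sections), aged 11 weeks and taken 3 weeks after doxycycline was withdrawn from both groups. The rNLS8 model carries a human TDP-43 that lacks its nuclear localisation signal, expressed in neurons from the NEFH promoter through a doxycycline-repressed activator, so that withdrawal switches it on. The labels give no genotype for the control mice and do not say whether the sections of a group came from separate animals, so p-values below measure only the spread between these sections. The sections were 5 µm thick, cut from fixed, paraffin-embedded tissue, and replicate 1 of each group was labelled female and replicate 2 male.

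The basal forebrain holds the cholinergic neurons that project to the cortex and hippocampus, which make acetylcholine with Chat and load it into vesicles with Slc18a3. The preoptic area next to it, at the front of the hypothalamus, is built largely of GABA neurons and peptide neurons and is known for its part in reproduction, body temperature and sleep. Neurons that make gonadotropin-releasing hormone, encoded by Gnrh1, lie scattered through both.

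Sections differed in depth, and the sex label of 1 of them did not match its counts. Total UMI ran from 17627577 to 28056089 per section, and selected spots held 756982 and 377234 UMI in rNLS8 1 and rNLS8 2, against 440891 and 524647 UMI in control 1 and control 2. Tardbp had 197 and 138 UMI in rNLS8 1 and rNLS8 2, against 0 in both control sections. In selected spots it had 7 and 1 UMI in rNLS8 1 and rNLS8 2, against 0 in both control sections. On selected spots alone the single UMI of rNLS8 2 could not be told from 0, while whole control sections also held 0. The summed level of Ddx3y, Uty, Kdm5d and Eif2s3y, genes of the Y chromosome, was 137 and 139 CPM (UMI per 1000000 UMI of the section) in rNLS8 1 and rNLS8 2, against 0 and 107 CPM in control 1 and control 2. The section whose label did not match was rNLS8 1, labelled female. Spot barcodes mark positions on the array and recur in every section by design.

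The selected spots of rNLS8 2 did not form a region. Selected spots next to each other were joined into patches, and the largest patch held 41 spots in rNLS8 1 and 3 in rNLS8 2, against 26 in control 1 and 71 in control 2. In rNLS8 2, 71 of 78 selected spots (91.0%) had no selected neighbour, against 20 of 89 (22.5%) in rNLS8 1, 11 of 78 (14.1%) in control 1 and 4 of 83 (4.82%) in control 2. The spots of rNLS8 2 were scattered over the whole section, while those of the other sections lay mostly on 1 side of it. They formed 28 patches in rNLS8 1 and 74 in rNLS8 2, against 21 in control 1 and 8 in control 2, so that only control 2 had nearly all of them in 1 patch. The marker share needed to be among the top 3% was also lowest there, at 0.0607% of UMI in rNLS8 2 and 0.104% in rNLS8 1, against 0.0982% in control 1 and 0.155% in control 2. The highest share just outside was 0.0604% in rNLS8 2, 0.103% in rNLS8 1, 0.0981% in control 1 and 0.155% in control 2, so the limit cut through a continuous range in each section. At the limit of control 1, 8 spots (0.307%) of rNLS8 2 and 108 spots (3.63%) of rNLS8 1 would have been taken, against 78 (3.00%) of control 1 and 173 (6.24%) of control 2.

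**Figure D1:**
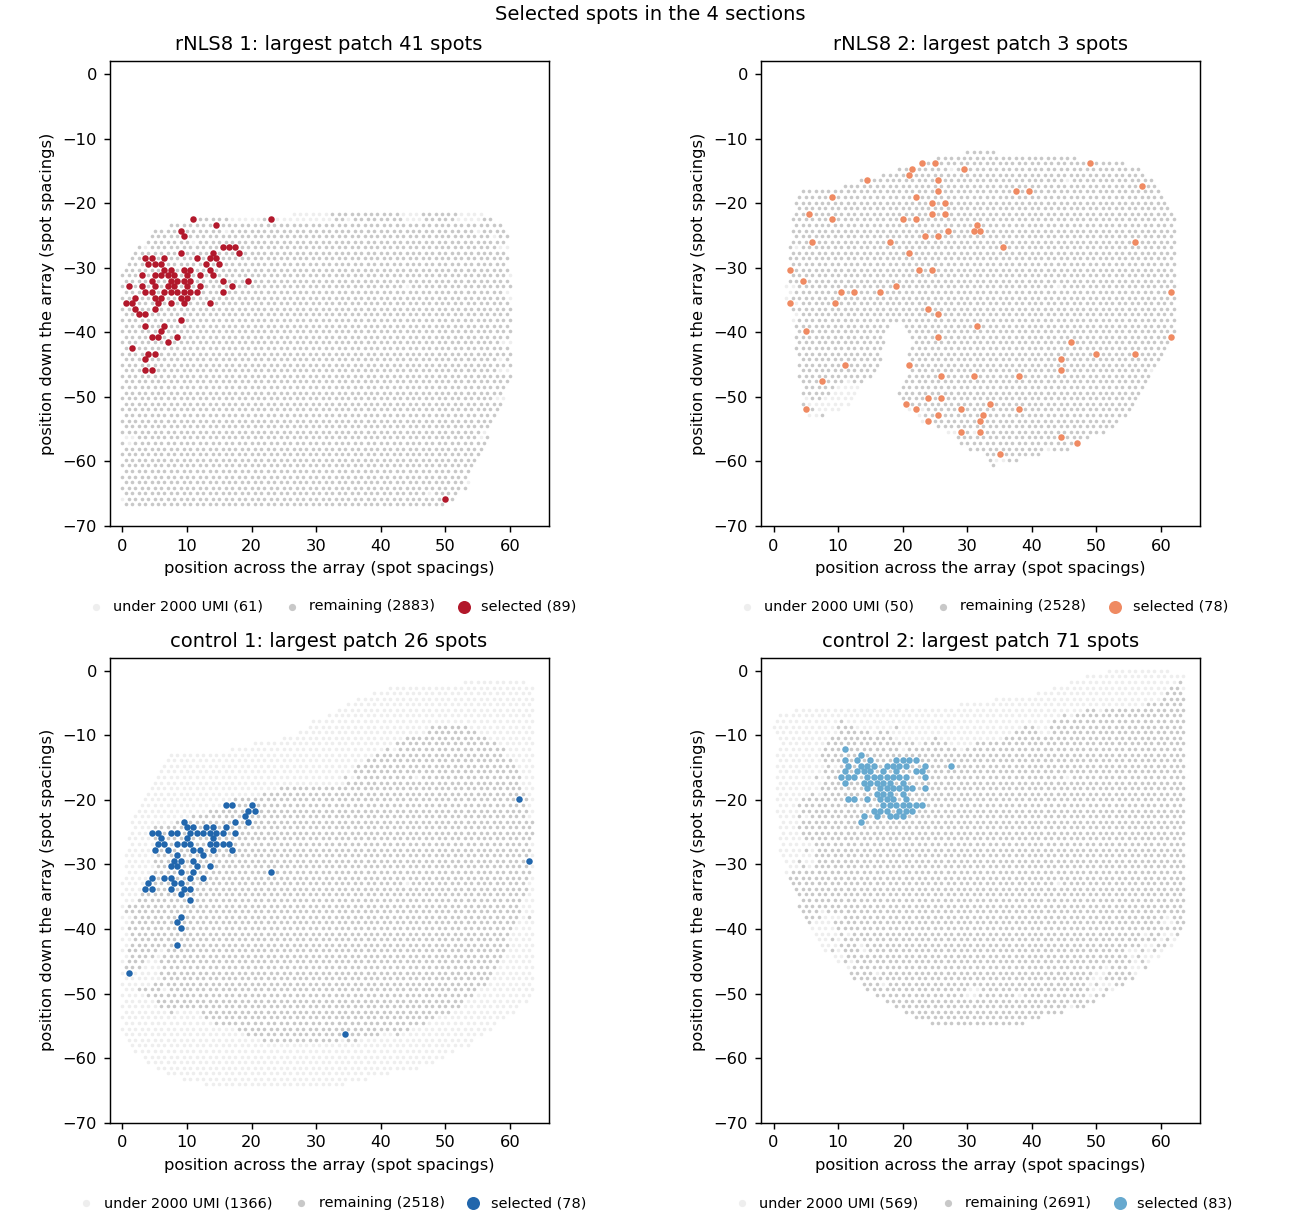
Position of every spot under tissue in the 4 sections, with both axes in spot spacings; selected spots are coloured, remaining spots are grey, and spots under 2000 UMI are pale grey. Selected spots lie mostly on 1 side of the section in rNLS8 1, control 1 and control 2, where the largest patch holds 46.1%, 33.3% and 85.5% of them, and are scattered in rNLS8 2, where it holds 3.85%.

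The markers used for the choice show the same split. These values only describe the choice. Levels are given here and below as CPM, the UMI of a gene per 1000000 UMI of the same spots. Lhx8 had 106 UMI in selected spots of rNLS8 1 (140 CPM) and 4 UMI in those of rNLS8 2 (10.6 CPM), against 54 UMI (122 CPM) in control 1 and 44 UMI (83.9 CPM) in control 2. Gbx1 had 45 UMI in rNLS8 1 and 0 UMI in rNLS8 2, against 18 UMI in control 1 and 20 UMI in control 2. In rNLS8 2 the neuronal markers were thus nearly absent, and 67.6% of the marker UMI in its selected spots came from Slc6a11, a GABA transporter of astrocytes, against 47.4% in rNLS8 1, 53.2% in control 1 and 54.0% in control 2. Agt, angiotensinogen, was at 127 CPM in rNLS8 1 and 37.1 CPM in rNLS8 2, against 154 CPM in control 1 and 398 CPM in control 2. Itih3, which encodes a hyaluronan-binding matrix protein chain, was at 376 CPM in rNLS8 1 and 199 CPM in rNLS8 2, against 288 CPM in control 1 and 421 CPM in control 2. Over the whole section, Lhx8 had 593 UMI in rNLS8 1 and 35 UMI in rNLS8 2, against 265 UMI in control 1 and 241 UMI in control 2. The low count of rNLS8 2 was therefore a feature of that section and not only of the spots chosen in it.

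The split was also present at equal depth. After each spot was thinned to 2000 UMI, 27 of 89 selected spots (30.3%, exact 95% interval 21.0% to 41.0%) in rNLS8 1 and 1 of 78 (1.28%, 0.0324% to 6.94%) in rNLS8 2 held a UMI of Lhx8 or Gbx1. The values in control 1 and control 2 were 20 of 78 (25.6%, 16.4% to 36.8%) and 19 of 83 (22.9%, 14.4% to 33.4%). Before thinning the shares were 77.5% in rNLS8 1 and 5.13% in rNLS8 2, against 53.8% in control 1 and 48.2% in control 2. In remaining spots, which include the rest of the forebrain, the thinned shares were 4.58% in rNLS8 1 and 0.396% in rNLS8 2, against 2.78% in control 1 and 2.04% in control 2. The intervals cover counting error only. Since Lhx8 and Gbx1 took part in the choice, these shares describe the chosen spots and test nothing. The authors' deposited table of Moran's I, a score of how strongly a gene's counts cluster in space, gives Lhx8 0.185 in rNLS8 1 and 0.034 in rNLS8 2, against 0.110 in control 1 and 0.101 in control 2. For Gbx1 that deposited table gives 0.076 in rNLS8 1 and -0.001 in rNLS8 2, against 0.049 in control 1 and 0.074 in control 2. Given this, counts of genes that passed are reported with and without rNLS8 2, as are the values of some single genes and lists. Fold changes and differences printed without such a second value were fitted with rNLS8 2 included. Without rNLS8 2 the rNLS8 group is 1 section whose spread is assumed to be that of the control sections.

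The cholinergic, preoptic and ventral forebrain transcription factor lists stood higher in selected spots of rNLS8 1, control 1 and control 2. None of their genes took part in the choice. A list of thalamic genes also stood higher there, as given below. The comparison of selected with remaining spots is a description, since the spots were chosen on counts of the same libraries. Of 7502 genes with enough counts to compare, 107 (1.43%) had a log2 ratio of selected over remaining spots above 1 in rNLS8 1 and 32 (0.427%) in rNLS8 2, against 162 (2.16%) in control 1 and 256 (3.41%) in control 2. In rNLS8 1, control 1 and control 2 together, 53 genes (0.706%) were above 1 and 68 (0.906%) under -1. Adding rNLS8 2 left 4 genes (0.0533%) above and 2 (0.0267%) below. The groups of genes that follow are ordered by the neurons and glia they mark.

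Cholinergic genes stood higher in selected spots of those 3 sections. Chat, choline acetyltransferase, was at 45.0 CPM in selected spots of rNLS8 1 and 2.65 CPM in those of rNLS8 2, against 13.6 CPM in control 1 and 40.1 CPM in control 2. The remaining spots had 13.6 and 1.69 CPM in rNLS8 1 and rNLS8 2, against 10.3 and 9.92 CPM in control 1 and control 2. Chat thus stood well above the rest of the section in rNLS8 1 and control 2, only slightly above it in control 1, and was low in all of rNLS8 2. Slc18a3, the vesicular acetylcholine transporter, was at 47.6 and 2.65 CPM in selected spots of rNLS8 1 and rNLS8 2, against 20.4 and 53.5 CPM in control 1 and control 2. Slc5a7, the choline transporter and a defining marker of these neurons, had 0 UMI in the selected spots of all 4 sections and was near 0 elsewhere. The summed level of the 7 cholinergic genes in selected over remaining spots, as a log2 ratio, was 1.40 in rNLS8 1 and -0.54 in rNLS8 2, against 1.11 in control 1 and 1.62 in control 2.

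Genes of the preoptic area showed the same split as a sum, while the listed hypothalamic neuropeptides did not. Gal, the peptide galanin of preoptic sleep and parental neurons, was at 14.6 CPM in selected spots of rNLS8 1 and 0 in those of rNLS8 2, against 24.98 CPM in control 1 and 24.8 CPM in control 2. Irs4, an insulin receptor substrate abundant in the hypothalamus, was at 33.1 and 2.65 CPM in rNLS8 1 and rNLS8 2, against 27.2 and 30.6 CPM in control 1 and control 2. Irs4 was thus close in rNLS8 1, control 1 and control 2, and its remaining spots were between 1.28 and 5.42 CPM in all 4 sections. Baiap3, a dense-core vesicle release factor, was at 376 and 47.8 CPM in rNLS8 1 and rNLS8 2, against 640 and 439 CPM in control 1 and control 2. The summed level of the 12 listed preoptic genes had a log2 ratio of selected over remaining spots of 1.18 in rNLS8 1 and 0.22 in rNLS8 2, against 1.36 in control 1 and 1.56 in control 2. Esr1, the estrogen receptor, was low, at 2.65 and 0 CPM in rNLS8 1 and rNLS8 2, against 11.4 and 9.55 CPM in control 1 and control 2. Avp, vasopressin, had 0 UMI in the selected spots of all 4 sections, and Oxt, oxytocin, had 1.32 CPM in rNLS8 1 and 0 in the others. These 2 hormones mark the large neurosecretory neurons of the hypothalamus. For the 15 listed hypothalamic neuropeptides on the array, the log2 ratio of the sum was -0.163 in rNLS8 1 and 0.099 in rNLS8 2. It was 0.231 in control 1 and 0.859 in control 2, so rNLS8 1 lay below rNLS8 2.

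Transcription factors and signalling genes of ventral forebrain development were also high. Nkx2-1, the factor that specifies the medial ganglionic eminence and preoptic area, was at 74.1 and 5.31 CPM in selected spots of rNLS8 1 and rNLS8 2, against 24.98 and 66.8 CPM in control 1 and control 2. Its remaining spots were at 17.1 and 2.44 CPM in rNLS8 1 and rNLS8 2, against 7.78 and 11.8 CPM in control 1 and control 2. Shh, sonic hedgehog, was at 84.7 and 18.6 CPM in rNLS8 1 and rNLS8 2, against 56.8 and 53.5 CPM in control 1 and control 2. Shh and Zic1, a zinc finger factor of the septum and basal forebrain, were among the few genes also higher in the scattered spots of rNLS8 2. Zic1 was at 390 and 294 CPM in selected spots of rNLS8 1 and rNLS8 2, against 509 and 311 CPM in control 1 and control 2, with remaining spots between 147 and 175 CPM. Lhx6, a factor of neurons born in the medial ganglionic eminence, was at 134 and 42.4 CPM in selected spots of rNLS8 1 and rNLS8 2, against 72.7 and 80.2 CPM in control 1 and control 2. All 5 genes of GABA synthesis and transport, such as Gad2 and Slc32a1, were higher in selected than in remaining spots of every section, with a log2 ratio of their sum of 0.80 in rNLS8 1 and 0.37 in rNLS8 2, against 0.90 in control 1 and 0.76 in control 2.

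By the rule for naming genes, the highest of the remaining genes included Clic6, an intracellular chloride channel protein, Dlk1, a non-canonical Notch ligand, Npy2r, a receptor for neuropeptide Y, Arhgap36, Nts, the peptide neurotensin, and Sncg, gamma-synuclein. Clic6 was at 253 and 74.3 CPM in selected spots of rNLS8 1 and rNLS8 2, against 245 and 248 CPM in control 1 and control 2. In the 3 sections that held the region, Igsf1, a membrane glycoprotein of the hypothalamus and pituitary, Etnppl, an astrocyte enzyme, Calb2, calretinin, C1ql2 and Gpx3, a secreted glutathione peroxidase, also stood out, a choice made after rNLS8 2 was seen to lack the region. Igsf1 was at 64.8 and 5.31 CPM in rNLS8 1 and rNLS8 2, against 111 and 159 CPM in control 1 and control 2. Etnppl was at 114 and 13.3 CPM in rNLS8 1 and rNLS8 2, against 38.6 and 136 CPM in control 1 and control 2. For both genes the selected spots of rNLS8 2 were close to its remaining spots, which had 3.84 CPM of Igsf1 and 16.1 CPM of Etnppl.

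Genes of the cortex and striatum, the regions beside the basal forebrain, were low in selected spots. Slc17a7, the vesicular glutamate transporter of cortical neurons, was at 738 CPM in selected spots of rNLS8 1 and 2520 CPM in those of rNLS8 2, against 1215 CPM in control 1 and 711 CPM in control 2. None of the 11 listed cortical genes was higher in selected than in remaining spots of rNLS8 1, control 1 or control 2. The striatal sum had a log2 ratio of -0.90 in rNLS8 1 and 0.18 in rNLS8 2, against -1.04 in control 1 and -1.31 in control 2. The 8 listed thalamic genes went the other way, with 0.62 in rNLS8 1 and 0.06 in rNLS8 2, against 1.54 in control 1 and 1.29 in control 2. Calb2 is on that list and had 441 of its 579 CPM in selected spots of control 1. The genes lowest in selected spots by the rule included Emx1, a cortical homeobox factor, Cckbr, a cholecystokinin receptor, and Bdnf, the neurotrophin. Bdnf was at 26.5 and 58.4 CPM in selected spots of rNLS8 1 and rNLS8 2, against 22.7 and 21.0 CPM in control 1 and control 2, and at 51.1 and 98.9 CPM in remaining spots of rNLS8 1 and rNLS8 2, against 37.9 and 55.1 CPM in those of control 1 and control 2.

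**Figure D2:**
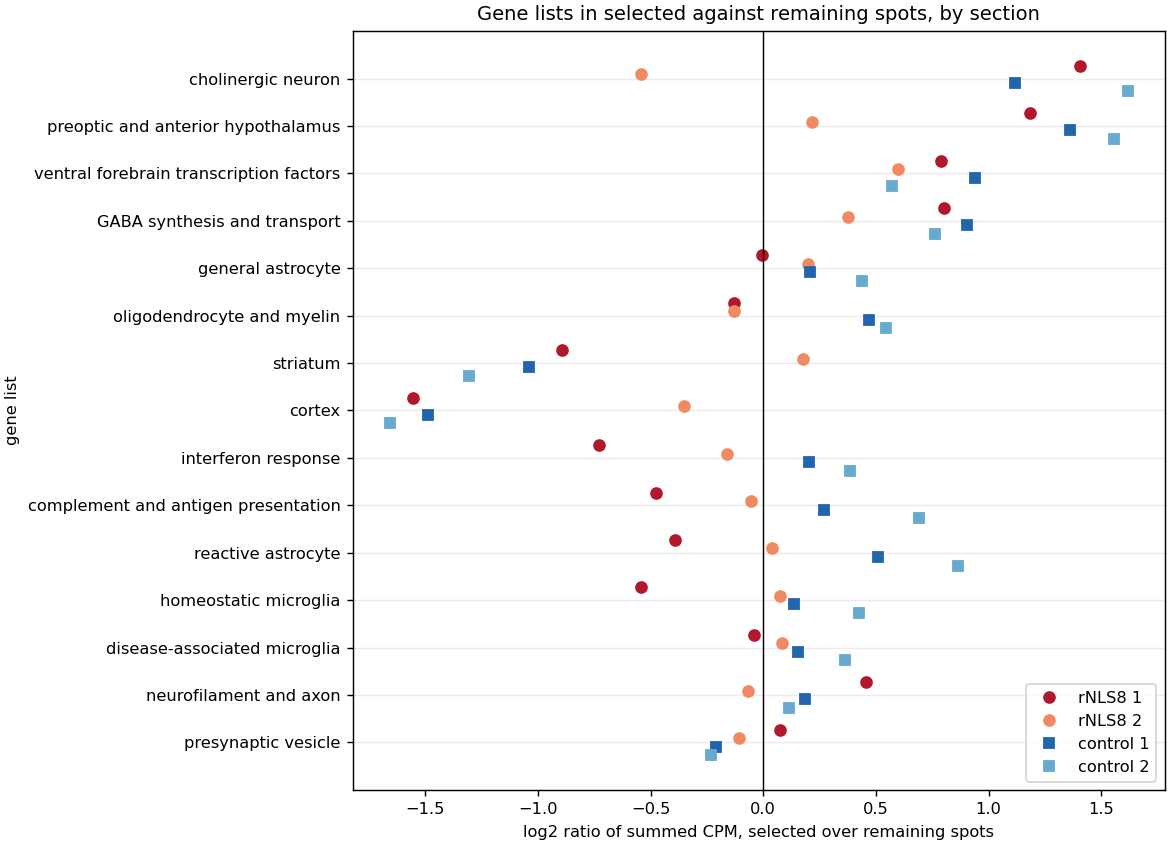
Log2 ratio of the summed CPM of 15 gene lists in selected over remaining spots, 1 point per section (circles rNLS8, squares control). Cholinergic and preoptic lists lie above 1 and cortex below -1.4 in rNLS8 1, control 1 and control 2, while rNLS8 2 has -0.54, 0.22 and -0.35; for the interferon, complement and reactive astrocyte lists both rNLS8 sections lie below both control sections.

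The selected spots were not uniform among themselves. In control 2, where the largest patch held 71 of 83 spots, Gnrh1 was at 142 CPM in that patch and at 0 in the other 12 spots. In control 1 the largest patch of 26 spots had Chat at 6.04 CPM and Gal at 0, while the other 52 selected spots had Chat at 18.2 CPM and Gal at 40.03 CPM. The largest patch of control 1 thus held less of the Chat and Gal RNA found elsewhere among its selected spots, whereas the patch of rNLS8 1 carried Chat at 44.5 CPM and Gal at 13.1 CPM. Unselected spots next to selected ones still carried regional genes, some at lower levels than the selected spots. Shh was at 49.4 CPM in the adjacent spots of rNLS8 1 and 5.30 CPM in those of rNLS8 2, against 42.6 CPM in control 1 and 48.3 CPM in control 2, below the selected spots of every section. Nkx2-1 was lower there than in selected spots in rNLS8 1 and control 2, at 46.3 and 49.9 CPM, and not in control 1, at 28.4 CPM. Baiap3 was at 402 CPM in the adjacent spots of rNLS8 1 and 67.5 CPM in those of rNLS8 2, against 565 CPM in control 1 and 410 CPM in control 2. Other remaining spots had Baiap3 at 103 CPM in rNLS8 1 and 32.0 CPM in rNLS8 2, against 108 CPM in control 1 and 70.3 CPM in control 2, so Baiap3 stayed high beyond the limit of the choice.

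The comparison of rNLS8 with control asked which genes differed in the selected spots 3 weeks into TDP-43 expression. Those of rNLS8 2 were scattered, so with all sections only 1 rNLS8 section held the region. The comparison used edgeR's quasi-likelihood test on UMI summed per section, with Benjamini-Hochberg adjustment over all genes tested and a threshold of 0.05. Of 7379 genes, 1 gene passed (0.0136%), and 398 had an unadjusted p under 0.05. The median log2 fold change of all genes tested was 0.001. Without rNLS8 2, 2 of 8073 genes passed (0.0248%), 1 higher (0.0124%) and 1 lower (0.0124%) in rNLS8, and that median was -0.021. In spot data, fewer cells of a type and less RNA per cell cannot be told apart.

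The gene that passed with all sections was Gnrh1, which was lower in rNLS8. It had 3 UMI in selected spots of rNLS8 1 and 0 in those of rNLS8 2, against 42 in control 1 and 63 in control 2. As levels these were 3.97 and 0 CPM, against 95.4 and 120 CPM, and the groups did not overlap. The fitted log2 fold change was -5.29 (adjusted p = 0.000135, edgeR), and the ratio of summed UMI, rNLS8 over control, was 0.0243 (exact 95% interval 0.00493 to 0.0730, counting error only). Without rNLS8 2 the ratio was 0.0364 (0.00739 to 0.109) and the log2 fold change -4.73 (adjusted p = 1.94e-08, edgeR; 3.51e-16 to 0.0461 over all alternatives with a value). Gnrh1 passed and was lower in all 17 alternatives that tested it, and it was not among the genes tested when Lhx8 and Gbx1 alone chose the spots.

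The lower Gnrh1 counts of the rNLS8 sections were not limited to the spots chosen. Unselected spots next to them had 9 and 8 UMI in rNLS8 1 and rNLS8 2, against 88 and 38 UMI in control 1 and control 2. Whole sections, spots under 2000 UMI included, had 110 and 45 UMI in rNLS8 1 and rNLS8 2, against 259 and 222 UMI in control 1 and control 2. In the control sections the UMI were spread over 20 selected spots of control 1 and 33 of control 2, with at most 7 and 12 UMI in 1 spot. In the authors' deposited table the Moran's I of Gnrh1 was -0.004 in rNLS8 1 and 0.001 in rNLS8 2, against 0.226 in control 1 and 0.202 in control 2. Gnrh1 counts were therefore clustered in space in both control sections and in neither rNLS8 section. Within control, Gnrh1 was higher in selected spots without a Lhx8 or Gbx1 UMI than in those with one. The levels were 178 against 41.3 CPM in control 1 and 147 against 94.4 CPM in control 2. Spots without such a UMI were 20 of 89 in rNLS8 1 and 74 of 78 in rNLS8 2, against 36 of 78 in control 1 and 43 of 83 in control 2. Only 1 of the rNLS8 sections held the region. The part of this make-up, of the plane of cut or of sex in the Gnrh1 difference was not tested.

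Beside Gnrh1, other genes of the same area were lower in rNLS8 1 without passing the test. Dlk1 was at 140 and 63.7 CPM in selected spots of rNLS8 1 and rNLS8 2, against 309 and 281 CPM in control 1 and control 2 (log2 fold change -1.52 ± 0.33 SE, adjusted p = 0.229, edgeR). Sfrp5, a secreted inhibitor of Wnt signalling, was at 18.5 and 10.6 CPM in rNLS8 1 and rNLS8 2, against 59.0 and 99.3 CPM in control 1 and control 2 (log2 fold change -2.39 ± 0.44 SE, adjusted p = 0.0819, edgeR). Both genes separated the groups without overlap, as did 1121 of the 7379 genes (15.2%) in that direction. Of 6 preoptic genes that could be tested, 4 lay below both control sections in rNLS8 1, where 27.9% of all genes did. Of 4 cholinergic genes tested, 2 lay above both control sections in rNLS8 1 and none below, where 34.6% of all genes lay above. These counts are close to the share of all genes for the cholinergic genes and cover few genes in both lists. In remaining spots neither list held a gene that passed.

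Genes of the interferon response, which cells switch on after type I interferon, summed higher in both rNLS8 sections, and none passed the test. Bst2, a membrane protein that tethers budding virus, was at 35.7 and 92.8 CPM in selected spots of rNLS8 1 and rNLS8 2, against 9.08 and 11.46 CPM in control 1 and control 2 (log2 fold change 2.46, adjusted p = 0.328, edgeR). B2m, the light chain of MHC class I, is also induced by interferon and belongs here to the complement and antigen presentation list. It was at 182 and 401 CPM in rNLS8 1 and rNLS8 2, against 34.1 and 86.0 CPM in control 1 and control 2 (log2 fold change 2.17, adjusted p = 0.0819, edgeR). Over the alternatives Bst2 passed in 5 of 16 and B2m in 7 of 18. Both genes separated the groups, as did 1594 of the 7379 genes (21.6%) in that direction. Oasl2, an interferon-induced antiviral protein, was at 27.8 and 45.1 CPM in rNLS8 1 and rNLS8 2, against 15.9 and 13.4 CPM in control 1 and control 2. Irf9, a subunit of the factor that carries the interferon signal to the genome, was at 29.1 and 61.0 CPM in rNLS8 1 and rNLS8 2, against 11.4 and 24.8 CPM in control 1 and control 2. Only 4 of the 23 listed genes on the array had enough counts to be tested here. The filter asked for enough counts in 2 sums, so it could keep a gene through its rNLS8 sums alone. That the 4 genes were higher in rNLS8 is therefore no support of its own. In selected spots 1 listed gene had 0 UMI in each rNLS8 section, against 8 in control 1 and 9 in control 2. Summed over all 23, the list was at 278 and 676 CPM in selected spots of rNLS8 1 and rNLS8 2, against 141 and 178 CPM in control 1 and control 2. In remaining spots that sum was 461 and 757 CPM in rNLS8 1 and rNLS8 2, against 122 and 136 CPM in control 1 and control 2. The separation of the groups was therefore present in the selected spots of rNLS8 1 but smaller than in the rest of that section.

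The promoters of B2m and Bst2 are shown because both genes are interferon-induced, separated the groups here and carry the core of the interferon-stimulated response element. Its letters are GAAA, 2 bases of any kind and GAAA, and they are set in capitals. The sequences run 5′ to 3′ on the strand of the gene, from 250 bases before to 50 after its start, and come from RefSeq on GRCm38.p6. B2m lies at chr2:122147437-122147736 on the forward strand, and Bst2 at chr8:71537423-71537722 on the reverse strand. In Bst2 the 2 matches overlap and form 1 run.
B2m: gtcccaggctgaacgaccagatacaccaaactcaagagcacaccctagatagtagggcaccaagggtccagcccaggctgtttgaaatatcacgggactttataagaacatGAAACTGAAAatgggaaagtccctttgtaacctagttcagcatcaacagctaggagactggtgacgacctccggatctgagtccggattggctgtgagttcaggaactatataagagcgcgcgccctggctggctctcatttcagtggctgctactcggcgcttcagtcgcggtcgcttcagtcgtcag
Bst2: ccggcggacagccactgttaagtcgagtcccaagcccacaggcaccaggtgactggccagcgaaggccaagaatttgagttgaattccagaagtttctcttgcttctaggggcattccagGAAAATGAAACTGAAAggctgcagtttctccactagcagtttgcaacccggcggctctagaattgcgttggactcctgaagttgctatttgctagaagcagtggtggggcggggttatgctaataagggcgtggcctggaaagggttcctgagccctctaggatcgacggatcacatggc
With both strands searched, 8 of the 17 interferon genes that had a promoter in the RefSeq table (47.1%) held the pattern, against 1079 of 27025 genes in that table (3.99%). Isg15 held 3 matches, Ifit1, Ifit3 and Ifitm3 held 2 each, and Irf7, Irf9 and Oasl2 held none. A match describes these letters in this window and is not a measured binding site.

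Gfap and the reactive astrocyte genes were lower in the selected spots of rNLS8 1 than elsewhere in that section, whereas general astrocyte genes were not. Gfap was at 311 CPM in selected spots of rNLS8 1 and 995 CPM in those of rNLS8 2, against 279 CPM in control 1 and 453 CPM in control 2. Selected spots of rNLS8 1 therefore lay within the range of control, and those of rNLS8 2 above it. In remaining spots Gfap was at 433 and 961 CPM in rNLS8 1 and rNLS8 2, against 160 CPM in both control sections. The 23 reactive astrocyte genes summed to 542 and 1441 CPM in selected spots of rNLS8 1 and rNLS8 2, against 482 and 695 CPM in control 1 and control 2. None of the 6 that could be tested passed, and their median log2 fold change was 0.60 with all sections and -0.10 without rNLS8 2.

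Microglial and complement genes had the same order. C1qc, a chain of the first complement component that microglia make, was at 64.8 and 207 CPM in selected spots of rNLS8 1 and rNLS8 2, against 63.6 and 160 CPM in control 1 and control 2. In remaining spots it was at 128 and 233 CPM in rNLS8 1 and rNLS8 2, against 60.1 and 67.6 CPM in control 1 and control 2. The groups overlapped for C1qc in selected spots and did not in remaining spots. Homeostatic microglial genes such as Csf1r and P2ry12 summed to 279 and 578 CPM in selected spots of rNLS8 1 and rNLS8 2, against 279 and 479 CPM in control 1 and control 2. Disease-associated microglial genes were dominated by Apoe, Ctsb and Fth1 and summed to 5423 and 6733 CPM in rNLS8 1 and rNLS8 2, against 4265 and 6286 CPM in control 1 and control 2. Trem2, the lipid receptor of that state, was at 10.6 and 31.8 CPM in rNLS8 1 and rNLS8 2, against 6.81 and 19.1 CPM in control 1 and control 2. Cst7 had 3.97 and 26.5 CPM in rNLS8 1 and rNLS8 2, against 0 in both control sections.

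No listed neuronal gene other than Gnrh1 passed in the selected spots. Nefl, the light neurofilament chain, was at 462 and 257 CPM in rNLS8 1 and rNLS8 2, against 588 and 455 CPM in control 1 and control 2 (log2 fold change -0.57 ± 0.31 SE, adjusted p = 0.86, edgeR). None of the 9 neurofilament and axon genes and none of the 14 presynaptic genes tested passed, with median log2 fold changes of 0.18 and -0.17. None of the 9 genes of neuronal injury and integrated stress tested passed either, among them Gap43, an axon growth protein, Hspa5, a chaperone of the endoplasmic reticulum, and Atf4, the main factor of the stress response. Atf4 was at 35.7 and 39.8 CPM in rNLS8 1 and rNLS8 2, against 4.54 and 42.0 CPM in control 1 and control 2, so the control sections differed more from each other than the groups. For the cortex list, 8 genes were tested, none passed, and the median log2 fold change of 1.05 became -0.23 without rNLS8 2.

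Pdrg1 and Rit2 lay outside these lists. Pdrg1, a protein of the prefoldin-like chaperone complex, was at 280 and 382 CPM in selected spots of rNLS8 1 and rNLS8 2, against 123 and 122 CPM in control 1 and control 2 (log2 fold change 1.37, adjusted p = 0.229, edgeR). Rit2, a neuronal small GTPase, passed only when rNLS8 2 was left out (log2 fold change 5.08), since it was at 79.4 and 0 CPM in selected spots of rNLS8 1 and rNLS8 2, against 0 and 3.82 CPM in control 1 and control 2. Its remaining spots were at 38.8 and 3.14 CPM in rNLS8 1 and rNLS8 2, against 1.15 and 4.94 CPM in control 1 and control 2. Rit2 was thus a feature of 1 section, in and out of the selected spots.

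**Figure D3:**
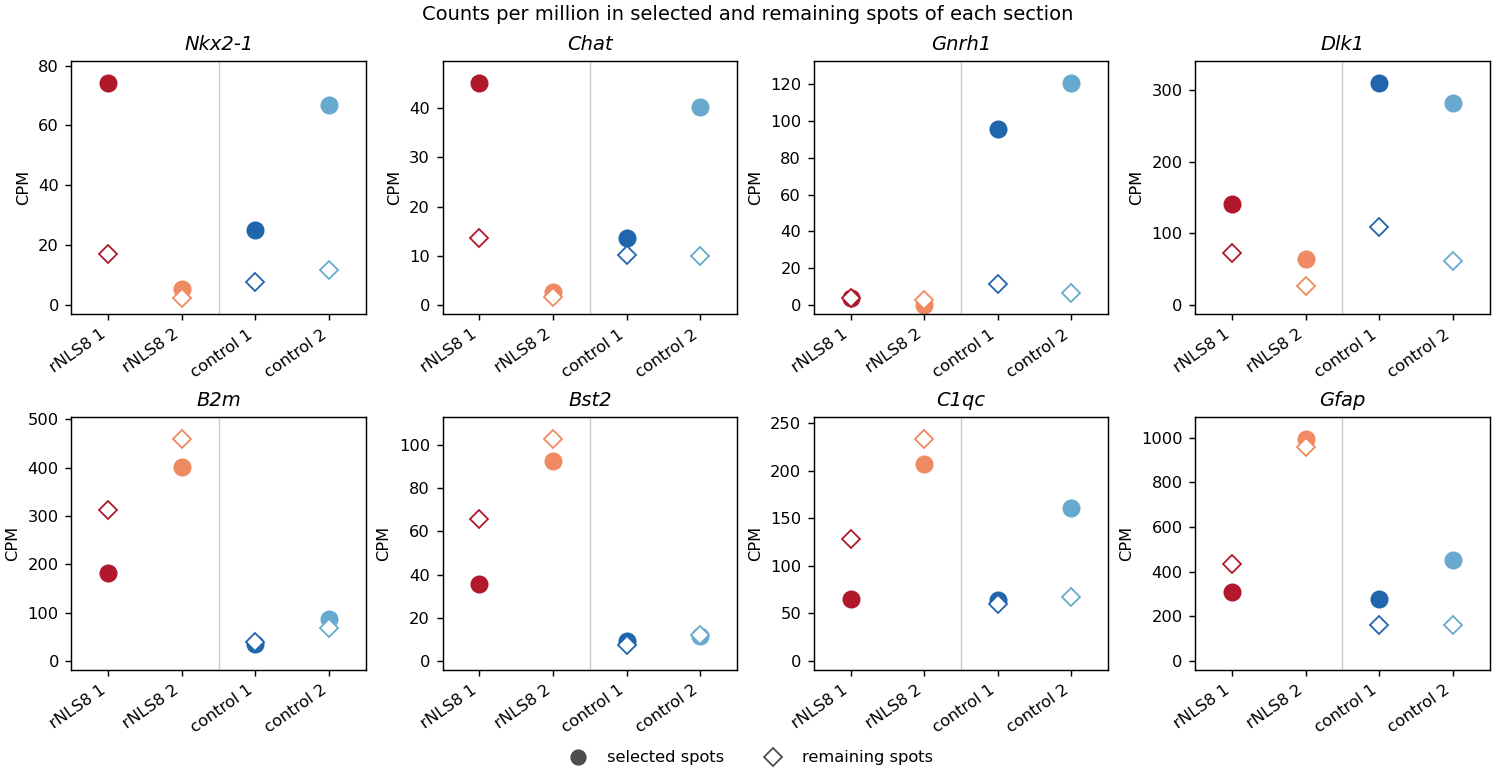
Levels of 8 genes in CPM, on linear axes from 0, in selected spots (filled circles) and remaining spots (open diamonds) of each section; each point is 1 section sum. Gnrh1 is at 3.97 and 0 CPM in selected spots of rNLS8 1 and rNLS8 2 and at 95.4 and 120 CPM in those of control 1 and control 2, while Gfap and C1qc are lower in selected than in remaining spots in rNLS8 1 and higher in control 2.

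In the remaining spots none of 13397 genes passed the same test (0%), although 2139 were below 0.05 before adjustment, and the same table gave 565 calls with DESeq2. Without rNLS8 2, 46 of 13718 passed (0.335%), 32 higher (0.233%) and 14 lower (0.102%) in rNLS8. The higher genes included 11 of the interferon list. Among these was Cxcl10, an interferon-induced chemokine, which was at 15.3 and 45.3 CPM in remaining spots of rNLS8 1 and rNLS8 2, against 0.461 and 0.397 CPM in control 1 and control 2. In selected spots Cxcl10 was at 1.32 and 15.9 CPM in rNLS8 1 and rNLS8 2, against 0 in both control sections. The chemokine was therefore lower inside than outside the selected spots in both rNLS8 sections, on few counts inside. In selected spots 3 UMI make 3.96 CPM in rNLS8 1 and 7.95 CPM in rNLS8 2.

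Whether the rNLS8 effect itself differed between selected and remaining spots was tested on 8 sums with section as a block. Of 13111 genes, 17 passed (0.13%), 4 with a more positive (0.0305%) and 13 with a more negative effect (0.0992%) in selected spots. Without rNLS8 2, 13 of 13452 passed (0.0966%), 3 more positive (0.0223%) and 10 more negative (0.0743%). Unadjusted p was under 0.05 for 909 genes with all sections. The genes found both ways were Gnrh1, Gfap, Sparc, C1qc, Fcer1g and Ncf1. Neither DESeq2 nor limma-voom called any of the 17, and none passed when control 2 was left out. Every call thus depended on control 2.

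The glial genes that passed had a lower effect in selected spots. The choice of spots itself rested largely on Agt, Slc6a11 and Itih3, which are transcribed mainly in astrocytes. Its limit also differed by section, at 0.104% of UMI in rNLS8 1 and 0.0607% in rNLS8 2, against 0.0982% in control 1 and 0.155% in control 2. Leaving the 5 markers out does not free other astrocyte genes from that choice, and its part in these differences was not tested. For Gfap the log2 difference of effects was -1.32 (adjusted p = 9.02e-06, edgeR), from an effect of 0.76 in selected and 1.99 in remaining spots. Without rNLS8 2 it was -1.60 (adjusted p = 3.62e-12, edgeR, with 3.62e-12 to 1 over the alternatives), and 14 of 18 alternatives passed. The selected-over-remaining pattern itself had opposite sign, since Gfap was lower in selected spots of rNLS8 1 and about equal in those of rNLS8 2, while it was higher in selected spots of both control sections. For C1qc the difference was -1.29 (adjusted p = 0.00206, edgeR), and for Fcer1g, an Fc receptor chain of microglia, it was -1.65 (adjusted p = 0.0175, edgeR). Fcer1g was at 18.5 and 63.7 CPM in selected spots of rNLS8 1 and rNLS8 2, against 34.1 and 59.2 CPM in control 1 and control 2. Ncf1, a subunit of the phagocyte oxidase, was at 11.9 and 31.8 CPM in rNLS8 1 and rNLS8 2, against 13.6 and 74.5 CPM in control 1 and control 2. Control 2 thus stood above the other 3 sections for Ncf1, whose difference was -1.77 (adjusted p = 0.0383, edgeR). Without rNLS8 2, Tyrobp, an adaptor of microglial receptors, C1qa, C4b, a complement protein of astrocytes, and Gbp3, an interferon-induced GTPase, also passed, with differences of -3.11, -0.95, -1.43 and -2.74. Tyrobp was at 6.61 CPM in selected spots of rNLS8 1, against 11.4 CPM in control 1 and 28.6 CPM in control 2, and C4b at 71.4 CPM in rNLS8 1, against 79.5 CPM in control 1 and 49.7 CPM in control 2. Since 3 UMI make 3.96 CPM in selected spots of rNLS8 1, the Tyrobp value there rested on few counts.

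Whole lists are described by the log2 ratio of summed CPM in selected over remaining spots. The interferon sum had -0.73 in rNLS8 1 and -0.16 in rNLS8 2, against 0.20 in control 1 and 0.38 in control 2. The complement and antigen presentation sum had -0.47 in rNLS8 1 and -0.05 in rNLS8 2, against 0.27 in control 1 and 0.69 in control 2. The reactive astrocyte sum had -0.39 in rNLS8 1 and 0.04 in rNLS8 2, against 0.51 in control 1 and 0.87 in control 2. General astrocyte genes had -0.01 in rNLS8 1 and 0.20 in rNLS8 2, against 0.21 in control 1 and 0.44 in control 2. Disease-associated microglial genes had -0.04 in rNLS8 1 and 0.09 in rNLS8 2, against 0.16 in control 1 and 0.36 in control 2. In these 5 lists both rNLS8 sections lay below both control sections, general astrocyte genes included. Homeostatic microglial genes had -0.54 and 0.08 in rNLS8 1 and rNLS8 2, against 0.14 and 0.43 in control 1 and control 2, in the same order. The difference of effects was positive for 53.7% of all 13111 genes, whose median was 0.043. It was positive for 10 of 22 interferon genes (45.5%), 10 of 22 disease-associated microglial genes (45.5%), 7 of 19 reactive astrocyte genes (36.8%), 4 of 18 complement and antigen presentation genes (22.2%), 1 of 11 general astrocyte genes (9.09%) and 0 of 11 homeostatic microglial genes. The members of the interferon list were therefore split in sign. Other lists also departed from the share of all genes. The difference was positive for 11 of 11 striatal, 8 of 10 cortical and 12 of 15 presynaptic genes. For preoptic and myelin genes it was positive in 1 of 9 and 1 of 10. In remaining spots the striatal sum was 4763 and 2586 CPM in rNLS8 1 and rNLS8 2. It was 5233 and 7796 CPM in control 1 and control 2. The part of the regions held by each section in these signs was not tested. With 2 sections a group, an exact permutation test of such a sum cannot give a p under 0.333.

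Markers of surface and fibre-rich tissue moved with these values. Sparc, a matrix protein of astrocytes and vessels, was at 545 and 302 CPM in selected spots of rNLS8 1 and rNLS8 2, against 441 and 902 CPM in control 1 and control 2 (log2 difference of effects -1.22, adjusted p = 2.87e-05, edgeR). General astrocyte genes summed to 4173 and 5690 CPM in selected spots of rNLS8 1 and rNLS8 2, against 4136 and 5907 CPM in control 1 and control 2, and genes of meninges and vessels to 429 and 512 CPM in rNLS8 1 and rNLS8 2, against 447 and 367 CPM in control 1 and control 2. For meninges and vessels the log2 ratios of selected over remaining spots were 0.12 and -0.20 in rNLS8 1 and rNLS8 2, against 0.23 and 0.08 in control 1 and control 2, and these overlapped. Myoc, abundant in astrocytes of the brain surface, was at 71.4 and 37.1 CPM in rNLS8 1 and rNLS8 2, against 141 and 159 CPM in control 1 and control 2 (difference -1.14, adjusted p = 0.0383, edgeR). Mbp, myelin basic protein, was at 7363 and 7091 CPM in selected spots of rNLS8 1 and rNLS8 2, against 11090 and 10620 CPM in control 1 and control 2, and the 10 myelin genes together had log2 ratios of selected over remaining spots of -0.13 and -0.13, against 0.47 and 0.54. Unselected spots next to the selected ones gave the same order, with Gfap at 278 CPM in rNLS8 1 and 934 CPM in rNLS8 2, against 258 CPM in control 1 and 317 CPM in control 2, beside 442 and 964 CPM in the other remaining spots of rNLS8 1 and rNLS8 2, against 154 and 155 CPM in those of control 1 and control 2. The part of these markers in the glial result was not tested.

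The rest of the list held regional genes such as Calb2 and Baiap3, the astrocyte gene Ntsr2, and genes outside the gene lists. Calb2 and Baiap3 had differences of -1.14 (adjusted p = 0.00293, edgeR) and -0.96 (adjusted p = 0.0223, edgeR), and neither passed without rNLS8 2, where they were -0.46 and -0.66. Calb2 was at 189 and 29.2 CPM in selected spots of rNLS8 1 and rNLS8 2, against 441 and 227 CPM in control 1 and control 2. Ntsr2, a neurotensin receptor of astrocytes, was at 508 and 448 CPM in selected spots of rNLS8 1 and rNLS8 2, against 863 and 1003 CPM in control 1 and control 2 (difference -0.84, adjusted p = 0.0411, edgeR). Nap1l5, 2310022B05Rik and Vat1 had differences of -0.92, -0.93 and -0.93. Nap1l5 was at 4643 and 1701 CPM in selected spots of rNLS8 1 and rNLS8 2, against 5426 and 5092 CPM in control 1 and control 2. For 2310022B05Rik the levels were 278 and 164 CPM in rNLS8 1 and rNLS8 2, against 334 and 498 CPM in control 1 and control 2. Vat1 was at 397 and 186 CPM in rNLS8 1 and rNLS8 2, against 370 and 296 CPM in control 1 and control 2. The low section was rNLS8 2 for all 3 genes. On the positive side stood Tmem158, Dclk3, Enc1 and Ppp1r1b, the last a phosphatase inhibitor of striatal neurons, with differences of 0.97, 0.94, 0.91 and 0.89. Tmem158 was at 288 and 273 CPM in selected spots of rNLS8 1 and rNLS8 2, against 293 and 241 CPM in control 1 and control 2. Dclk3 was at 165 and 265 CPM in rNLS8 1 and rNLS8 2, against 184 and 174 CPM in control 1 and control 2. Enc1 was at 242 and 395 CPM in rNLS8 1 and rNLS8 2, against 243 and 304 CPM in control 1 and control 2. None of these 3 genes separated the groups in selected spots, and in remaining spots all 3 were lower in both rNLS8 sections. Ppp1r1b was at 1397 and 1486 CPM in selected spots of rNLS8 1 and rNLS8 2, against 1267 and 1644 CPM in control 1 and control 2, and at 2375 and 1324 CPM in remaining spots of rNLS8 1 and rNLS8 2, against 2494 and 3987 CPM in those of control 1 and control 2. Its groups overlapped in selected spots and separated in remaining spots. Without rNLS8 2 the 3 positive genes were Lynx1, a modulator of nicotinic receptors, Nefl and Nefm, with Nefm at 385 CPM in selected spots of rNLS8 1, against 211 CPM in control 1 and 279 CPM in control 2.

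**Figure D4:**
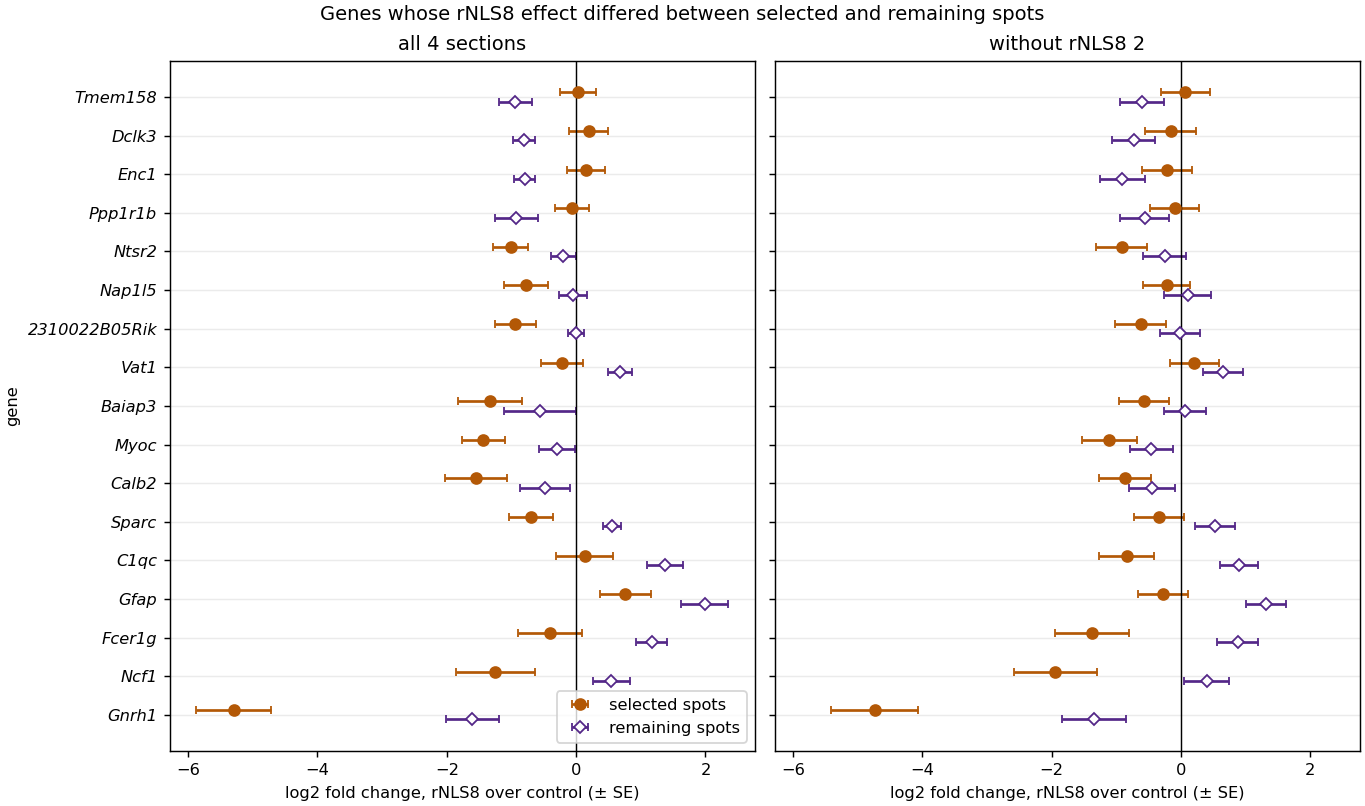
Log2 fold change of rNLS8 over control with its SE in selected spots (circles) and remaining spots (diamonds) for the 17 genes whose effect differed, with all 4 sections (left) and without rNLS8 2 (right). Gfap has 0.76 in selected and 1.99 in remaining spots with all sections, and Gnrh1 has -5.29 and -1.60.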

How the data were processed

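Spatial expression was measured with Visium arrays on fixed, paraffin-embedded mouse brain sections. Each deposited matrix gives UMI counts by spot, not normalized, from Space Ranger 2.1.0 per the file headers, with mm10 named per the labels; a probe set is not given in the sources used here. From the authors' deposited enrichment tables only the score Moran's I was taken. The other deposited files hold barcodes, gene names and array positions, and images and scale factors were not used.

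The members and gene lists were chosen with earlier results of these data known. Spots under tissue with at least 2000 UMI were ranked within each section by the share of 5 genes, and the top 3% were summed per section, as were the remaining spots; the 5 genes were then left out. CPM are UMI per 1000000 UMI of the same spots, and within-section log2 ratios add a pseudocount of 1 CPM. Quasi-likelihood tests were run in edgeR 4.0.16 under R 4.3.3, with genes kept by filterByExpr, library sizes scaled by TMM and p-values adjusted by Benjamini and Hochberg's method over every gene tested, on 4 sums for rNLS8 against control and on 8 sums with section as a block for the difference. The models were tested on simulated data with a fixed spread between sections (dispersion 0.01) and, apart from the planted changes, the same mean level in every section. That setting was not fitted to these sections, so the check does not show how the tests behave on them. limma 3.58.1 (voom), DESeq2 1.42.0, other filters, spot rules and left-out sections were alternatives. Python 3.11.15, numpy 2.4.6, pandas 2.3.3, scipy 1.17.1 and matplotlib 3.10.9 were used.

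Genes named against the remaining spots were the 15 highest and 10 lowest by the least extreme of the 4 sections' ratios, among genes with at least 20 CPM. For the tests they were the 10 of largest change per direction among those that passed, filled up to 10 by unadjusted p. Members of lists were named when they passed, otherwise by level. The 15 highest of 3 sections, and genes that passed without rNLS8 2, were added after rNLS8 2 was seen to lack the region. Replicate numbers did not pair the sections: deviations from group means correlated at 0.049 in selected and -0.16 in remaining spots. Sections of a group differed beyond counting error, with a chi-square per degree of freedom of 3.43 in rNLS8 and 3.55 in control. Some genes are not reported here.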

Additional observations from a re-analysis of the deposited data

Results flagged for a closer look

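The 17 genes below had an rNLS8 effect in selected spots that differed from that in remaining spots by the edgeR test of the difference itself. The values are log2 differences, the effect in selected spots minus that in remaining spots. Glial and matrix genes had lower effects in selected spots: -1.77 for Ncf1, -1.65 for Fcer1g, -1.29 for C1qc, -1.32 for Gfap, -1.22 for Sparc, -1.14 for Myoc and -0.84 for Ntsr2. Of these 7, Ncf1, Fcer1g, C1qc, Gfap and Sparc also passed without rNLS8 2. Neuronal and regional genes with lower effects were Gnrh1 at -3.96, Calb2 at -1.14, Baiap3 at -0.96 and Nap1l5 at -0.92. The genes 2310022B05Rik and Vat1 were at -0.93 each. The 4 genes with higher effects in selected spots were Tmem158 at 0.97, Dclk3 at 0.94, Enc1 at 0.91 and Ppp1r1b at 0.89. Each of the 17 kept its direction in all 18 alternatives run, but none passed with DESeq2, with limma-voom or without control 2.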

How the results depend on the processing

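The limits are 2 sections a group, 1 rNLS8 section without the region, and selected sums of 377234 to 756982 UMI, so that only 7379 genes could be tested. Where 1 section of a group was left out, the other was assumed to vary like the other group. In selected spots, against 1 gene called, DESeq2 called 2, no filter on low counts 17, Lhx8 and Gbx1 alone as markers 0 and 1 fixed share for all sections 2; without single sections the count ran from 2 to 68 (45 without rNLS8 1, 2 without rNLS8 2, 14 without control 1, 68 without control 2). In remaining spots, against 0, DESeq2 called 565, limma-voom 1 and no filter 299; without single sections the count ran from 2 to 1773 (273 without rNLS8 1, 46 without rNLS8 2, 2 without control 1, 1773 without control 2). For the difference, against 17, DESeq2 and limma-voom called 0, a minimum of 10 CPM 2, a minimum of 500 UMI per spot 7, the top 5% of spots 59 and selected spots with at least 2 selected neighbours 4; without single sections the count ran from 0 to 259 (259 without rNLS8 1, 13 without rNLS8 2, 9 without control 1, 0 without control 2). Shares averaged over neighbouring spots, chosen after seeing the data, gave 34. The cause of these changes was not tested. With the replicate number as a replicate block, 11, 7 and 8 genes were called in the 3 comparisons; the crossed pairing, chosen after seeing the data, gave 784 in remaining spots. Single genes were followed over the alternatives for Gnrh1, B2m, Bst2 and Pdrg1 in selected spots and for the 17 genes of the difference. None of these changed sign in an alternative run. Other named genes, such as Dlk1 and Sfrp5, were not followed in this way. List medians, which were not tested, did: of 430 values over 24 lists, 64 values in 19 lists had the opposite sign, 7 of them without rNLS8 2. There the cortex median was -0.23, against 1.05 with all sections, the reactive astrocyte median -0.10, against 0.60, and the homeostatic microglia median -0.48, against 0.10.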
